A study of Mus musculus with 9 samples.

Results

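The comparison described here is that of doxorubicin against saline in the heart of wild-type (WT) mice. It takes 6 of the 9 RNA-seq libraries of the series, 3 labelled WT saline and 3 labelled WT DOX, chosen by those labels alone, and every gene with a mean of at least 1 FPKM in these 6 files. FPKM counts sequenced fragments in relation to the length of the transcript and the depth of the library. The tissue is heart, the genotype of both groups is WT, and the treatment is saline or doxorubicin. The series' design text describes a low dose meant to cause a chronic injury and names the DNA sensor pathway of cGAS and STING as its subject. Dose, schedule, age, sex and the part of the heart taken are not given in the sources used here, nor is it said whether each library is a different animal. The p-values therefore reflect only the spread among these libraries, and that spread may be technical. The other 3 libraries, from Sting-/- mice given doxorubicin, enter only as an alternative in the estimate of the spread.

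Doxorubicin is an anthracycline used against many cancers. It slips between the bases of DNA, traps topoisomerase II on it, and also cycles electrons to oxygen in the presence of iron. Heart muscle cells, which hardly divide and depend on mitochondria for their energy, are known to be damaged by it, and long-term treatment is known to lead to thinning of the muscle, loss of contractile protein and fibrosis. A stressed ventricle typically makes natriuretic peptides, returns in part to the gene forms of the fetal heart, and burns less fat.

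Values for 16873 genes were in the files, of which 12019 passed the filter and were tested. Sums of FPKM over all genes lay between 552456 and 555425 in the saline libraries and between 559998 and 570128 in the DOX libraries. The depth, estimated from the steps of low values and therefore approximate, was 11350000 to 11750000 fragments in saline and 12950000 to 13350000 in DOX. Depth and fragment length were chosen together in each library as the setting that brought low values closest to whole fragments. At that setting 56.4% to 64.4% of the low values used came within 0.1 of a whole fragment. Values without steps would give 20% at a fixed setting, but more at the best of many. The fitted lengths were 20 to 70 bases. The labelled tissue matched its markers, since all 20 cardiomyocyte markers were expressed, with a summed level of 91420.0 to 92860.0 FPKM in saline and 61320.0 to 65460.0 FPKM in DOX. Markers of lung, liver, pancreas, epidermis and fast skeletal muscle were at or near 0, with a summed level of 3 to 3.43 FPKM in saline and 5.32 to 7.42 FPKM in DOX. The 10 most abundant genes held 16.5% to 16.6% of the summed FPKM in saline and 11.5% to 12% in DOX, and the gene at the top was Mb, which encodes myoglobin, in saline and Tpm1, a tropomyosin of the sarcomere, in DOX.

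Of the 12019 genes, 5439 (45.3%) were higher and 2699 (22.5%) lower in DOX than in saline, which makes 67.7% called (limma, Benjamini-Hochberg adjusted p under 0.05). At least 2-fold higher were 1150 genes (9.57%) and at least 2-fold lower 86 genes (0.716%), both taken on log2(FPKM + 1), where the added 1 shrinks the change of low genes. Ranges of the groups did not overlap for 8710 genes (72.5%). Over all genes tested, the median log2 fold change was 0.12. Because FPKM is a share of each library, this centre depends on the scaling, and it was -0.00376 after median-ratio scaling and -0.10 after quantile normalization. The share of called genes that were higher moved with it, from 66.8% as deposited to 51.0% and 39.2%. Small changes are therefore read below against the median of all genes, and list counts are given as deposited and with quantile normalization. The counts as deposited are to be read beside the 45.3% higher and 22.5% lower among all genes. Those with quantile normalization are to be read beside 3392 higher and 5266 lower of the 12019 genes. The filter also bears on counts, because a gene near 0 in saline passed it only where DOX was high: 504 genes tested had a saline mean under 1 FPKM and 468 of them were higher, while 43.2% of the rest were.

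**Figure D1:**
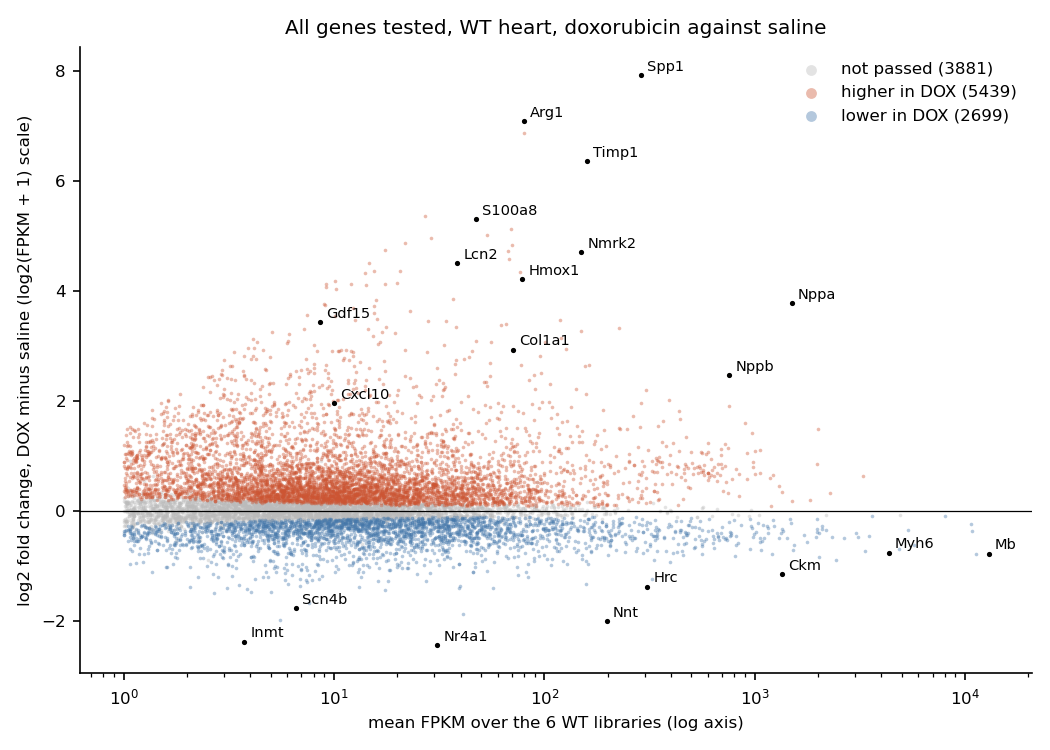
Each point is 1 of the 12019 genes tested, by its mean FPKM over the 6 WT libraries (log axis) and its log2 fold change, DOX minus saline, and colours mark the 5439 genes called higher, the 2699 called lower and the 3881 that did not pass. The rises reach 7.92 (Spp1) while the falls end at -2.43 (Nr4a1), and the most abundant genes, such as Mb and Myh6, lie below 0.

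Among the 15 largest rises stood secreted and injury-linked proteins and genes of myeloid cells. Predicted genes and genes with only a clone name, such as AA467197 (4.96), were left out of this set. Arg1, which encodes the arginine-splitting enzyme arginase 1, was at 0.06, 0.06 and 0.43 FPKM in the saline libraries and 173, 146 and 159 FPKM in the DOX libraries (log2 fold change 7.09, SE 0.11, limma adjusted p = 2.82e-10). Sprr1a, a small proline-rich protein induced in stressed tissues, was at 0.59, 0.12 and 0.48 FPKM in saline and 158, 155 and 167 FPKM in DOX (log2 fold change 6.86, SE 0.11, limma adjusted p = 2.87e-10). Each of these genes was close to 0 in all 3 saline libraries and over 100 FPKM in all 3 DOX libraries. Timp1, an inhibitor of matrix metalloproteases, was at 3.68, 2.06 and 2.94 FPKM in saline and 308, 323 and 314 FPKM in DOX (log2 fold change 6.36, SE 0.12, limma adjusted p = 5.26e-10). Chil3, a chitinase-like protein of monocytes and macrophages, was at 0.24, 0.46 and 0.3 FPKM in saline and 57, 51.5 and 53.6 FPKM in DOX (log2 fold change 5.37, SE 0.074, limma adjusted p = 1.54e-10). Tnc, the matrix protein tenascin C of healing tissue, was at 0.3, 0.42 and 0.24 FPKM in saline and 35.2, 35.7 and 32.5 FPKM in DOX (log2 fold change 4.75, SE 0.071, limma adjusted p = 2.06e-10), so that saline and DOX again lay far apart. Others in this set were Spp1 (7.92), S100a8 (5.3), Plac8 (5.12), S100a9 (5.02), Hp (4.88), Lgals3 (4.83), Ly6c2 (4.72), Nmrk2 (4.71), Ccl2 (4.58) and Cxcl5 (4.51). Ly6c2 has a close paralogue, so its reads may be shared, and Hp varied among the DOX libraries with 0.41, 0.27 and 0.51 FPKM in saline and 23, 63.1 and 43.8 FPKM in DOX. In bulk tissue such as this, more cells of a type and more RNA per cell cannot be told apart, nor can fewer and less.

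The 15 largest falls were smaller. Nr4a1, an orphan nuclear receptor induced within minutes by many signals, was at 51.8, 53.1 and 53 FPKM in the saline libraries and 7.22, 10.6 and 9.4 FPKM in the DOX libraries (log2 fold change -2.43, SE 0.1, limma adjusted p = 5.17e-08). Inmt, a methyltransferase that uses indoleamines, was at 8.23, 5.24 and 7.43 FPKM in saline and 0.46, 0.56 and 0.55 FPKM in DOX (log2 fold change -2.37, SE 0.13, limma adjusted p = 3.02e-07). The 3 saline libraries held at least several times the level of any DOX library for both genes. Nnt, the mitochondrial enzyme that makes NADPH at the expense of the proton gradient, was at 330.4, 300.3 and 319 FPKM in saline and 80.5, 75.5 and 79.7 FPKM in DOX (log2 fold change -2.0, SE 0.044, limma adjusted p = 1.13e-09), with little spread in either group. This gene is known to be defective in some mouse substrains, the strain of each group is not given in the sources used here, and its part in the difference was not tested. Ces1d, a carboxylesterase, was at 66.9, 65.4 and 62.9 FPKM in saline and 18.3, 16.2 and 16.9 FPKM in DOX (log2 fold change -1.86, SE 0.052, limma adjusted p = 3.85e-09). Myot, which encodes the Z-disc protein myotilin, was at 25.6, 27.5 and 24.7 FPKM in saline and 9.11, 8.86 and 9.09 FPKM in DOX (log2 fold change -1.43, SE 0.052, limma adjusted p = 1.83e-08). Hspa1a, an inducible heat shock protein 70 gene, was at 5.83, 17.5 and 13.5 FPKM in saline and 3.19, 3.12 and 2.35 FPKM in DOX (log2 fold change -1.66, SE 0.3, limma adjusted p = 0.000829), and saline library 1 lay well below the other two saline libraries. Zfp967 was at 7.72, 7.93 and 5.91 FPKM in saline and 5.28, 3.12 and 0 FPKM in DOX (log2 fold change -1.46, SE 0.54, limma adjusted p = 0.0365), and its DOX libraries ran from 5.28 FPKM down to a listed 0. Its call was lost without any 1 of the saline libraries (-1.39 to -1.58). The rest of the set was Retnla (-1.98), Scn4b (-1.76), Lgi1 (-1.48), Pkd2l2 (-1.47), Sbk2 (-1.41), Lrtm1 (-1.39), Mylk4 (-1.39) and Atcay (-1.39).

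**Figure D2:**
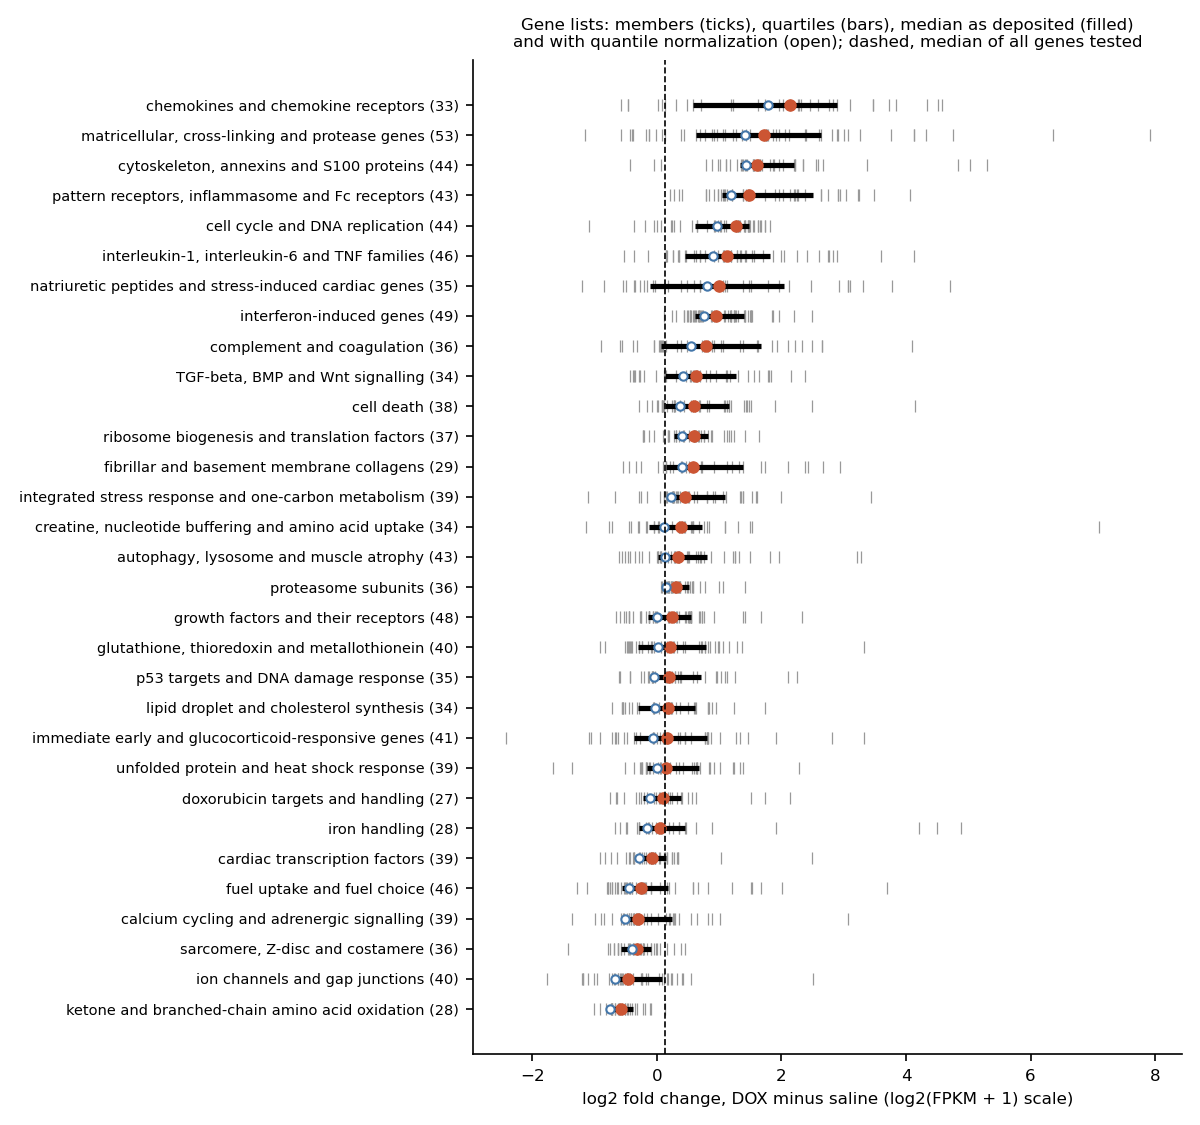
Each line is 1 of 31 pathway lists with the number of its members tested, ticks are the members' log2 fold changes, bars their quartiles, filled points the list median as deposited, open points that with quantile normalization, and the dashed line the median of all genes (0.12). Chemokines have the highest median (2.13) and ketone and branched-chain amino acid oxidation the lowest (-0.57).

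Of 27 tested genes for the targets and handling of doxorubicin, 10 were higher and 9 lower, with a median of 0.1 beside 0.12 for all genes, and with quantile normalization 7 were higher and 13 lower. Top2a, the topoisomerase II of dividing cells, was at 1.25, 1.91 and 1.57 FPKM in the saline libraries and 8.07, 7.09 and 7.53 FPKM in the DOX libraries (log2 fold change 1.74, SE 0.098, limma adjusted p = 3.19e-07). Top2b, the form of resting cells that doxorubicin is thought to poison in heart muscle, was at 17.8, 17.9 and 18 FPKM in saline and 17.9, 19.2 and 18.5 FPKM in DOX (log2 fold change 0.049, SE 0.046, limma adjusted p = 0.366). The groups did not overlap for Top2a and did so for Top2b, which did not pass. Akr1b8, an aldo-keto reductase, was at 3.5, 4.68 and 4.32 FPKM in saline and 20.4, 21.8 and 23 FPKM in DOX (log2 fold change 2.14, SE 0.087, limma adjusted p = 3.51e-08), and Abcc3, an export pump, rose by 1.51. Cbr1, the carbonyl reductase known for turning doxorubicin into its alcohol doxorubicinol, fell by 0.65. Abcb1a, a gene of the P-glycoprotein pump, fell by 0.66, while Abcb1b, another gene of that pump, did not pass (0.18). Slc22a3, an organic cation transporter, fell by 0.76. The transporters Abcg2 and Abcc5 had differences of 0.027 and -0.047 and did not pass.

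Genes of iron handling were split, with 12 of 28 tested members higher and 9 lower (10 and 13 with quantile normalization). Of all genes, 45.3% were higher and 22.5% lower as deposited. The largest rises in the list exceeded its largest falls. Hmox1, the heme oxygenase that frees iron from heme, was at 6.52, 7.47 and 7.4 FPKM in the saline libraries and 148, 149 and 152 FPKM in the DOX libraries (log2 fold change 4.21, SE 0.053, limma adjusted p = 1.07e-10). Lcn2, which binds iron-carrying siderophores and is also a neutrophil marker, was at 2.74, 2.04 and 2.2 FPKM in saline and 67.8, 81.8 and 73.8 FPKM in DOX (log2 fold change 4.5, SE 0.09, limma adjusted p = 5.9e-10). Ftl1, the ferritin light chain, was at 312, 308 and 322 FPKM in saline and 1186, 1153 and 1223 FPKM in DOX (log2 fold change 1.92, SE 0.034, limma adjusted p = 3.24e-10), whereas Fth1, the heavy chain, changed by 0.20. All 3 DOX libraries stood above all 3 saline libraries for each of these genes. Tfrc, the transferrin receptor, rose by 0.46. The falls included Fech, the last enzyme of heme synthesis, at -0.59, Abcb10 at -0.49, Nfs1, the sulfur donor of iron-sulfur clusters, at -0.48 and Slc40a1, the iron exporter ferroportin, at -0.29.

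In the glutathione, thioredoxin and metallothionein list, 21 of 40 members were higher and 15 lower (16 and 18 with quantile normalization). The shares of all genes as deposited were 45.3% and 22.5%. Mt2, a metal-binding metallothionein, was at 33.5, 49.8 and 39 FPKM in saline and 394, 444 and 399 FPKM in DOX (log2 fold change 3.32, SE 0.12, limma adjusted p = 1.52e-08). Gpx1, a glutathione peroxidase, rose by 1.36, Gsr, the glutathione reductase, by 1.0, Txn1, cytosolic thioredoxin, by 0.99 and Txnrd1, its reductase, by 0.85. Among the falls were Sod2, manganese superoxide dismutase (-0.48), Prdx3 and Prdx2, peroxiredoxins of mitochondria and cytosol (-0.41 and -0.29), Txn2, mitochondrial thioredoxin (-0.28), and Gstm2 and Gstm1, cytosolic glutathione transferases (-0.50 and -0.47). Gstk1, a glutathione transferase of mitochondria and peroxisomes, fell the most and was at 123, 116 and 112 FPKM in saline and 61.9, 59.4 and 64 FPKM in DOX (log2 fold change -0.91, SE 0.046, limma adjusted p = 1.57e-07). Cat, catalase, fell by 0.41.

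Of 35 tested p53 targets and damage response genes, 18 were higher and 5 lower, beside 45.3% and 22.5% of all genes. With quantile normalization 12 of them were higher and 13 lower, where 3392 of all 12019 genes were higher and 5266 lower. Cdkn1a, which encodes the p21 cell cycle inhibitor, was at 10.6, 13.6 and 11.1 FPKM in the saline libraries and 49, 58.5 and 53.2 FPKM in the DOX libraries (log2 fold change 2.1, SE 0.092, limma adjusted p = 5.69e-08). Gadd45g, a stress sensor of the growth arrest family, was at 7.17, 7.87 and 7.7 FPKM in saline and 41.2, 39.1 and 39.5 FPKM in DOX (log2 fold change 2.25, SE 0.05, limma adjusted p = 1.15e-09). Phlda3 rose by 1.26, Bax, which opens the outer mitochondrial membrane, by 1.12, and Pmaip1, the BH3-only protein Noxa, by 1.09. Some other textbook targets did not pass or were lower. Mdm2, which degrades p53, was at 23, 26.1 and 25.3 FPKM in saline and 26.1, 29.2 and 26.6 FPKM in DOX and did not pass (log2 fold change 0.13, SE 0.061, limma adjusted p = 0.0793). It did pass with the repeat number as a block in the fit, while with quantile normalization its sign changed. Ccng1, cyclin G1, was at 363, 394 and 385 FPKM in saline and 255, 254 and 249 FPKM in DOX (log2 fold change -0.59, SE 0.038, limma adjusted p = 7.77e-07), and Sesn1 fell by 0.61 and Rrm2b fell by 0.43. All 3 DOX libraries were thus below all 3 saline libraries for Ccng1, an abundant target, while they were above them for Cdkn1a.

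The integrated stress response links lack of amino acids, heme or folded protein to the transcription factor ATF4, which switches on amino acid supply and one-carbon metabolism. In its list 29 of 39 members were higher and 4 lower (20 and 6 with quantile normalization), with a median of 0.45 beside 0.12. Gdf15, a secreted cytokine of stressed mitochondria, was at 0.77, 0.53 and 0.54 FPKM in the saline libraries and 17.2, 14.3 and 18 FPKM in the DOX libraries (log2 fold change 3.43, SE 0.097, limma adjusted p = 4.15e-09). Psat1, an enzyme of serine synthesis, was at 2.7, 1.79 and 2.2 FPKM in saline and 12.4, 11.3 and 11.7 FPKM in DOX (log2 fold change 2.0, SE 0.098, limma adjusted p = 1.25e-07). Mthfd2, the mitochondrial folate enzyme, was at 2.29, 2.55 and 2.32 FPKM in saline and 9.25, 9.51 and 9.02 FPKM in DOX (log2 fold change 1.6, SE 0.062, limma adjusted p = 2.59e-08). Saline and DOX did not overlap for any of these. Phgdh, the first enzyme of serine synthesis, rose by 1.33, Asns, asparagine synthetase, by 1.53, Slc7a5, a carrier of large amino acids, by 1.39, and Atf4 itself by 0.80. Chac1 (-0.26), Cth (-0.68), Slc7a1 (-0.28) and Vldlr (-1.1) were the 4 that fell. In the unfolded protein and heat shock list, 20 of 39 were higher and 9 lower (18 and 16 with quantile normalization). Among all genes 45.3% and 22.5% were so as deposited. The largest rises were those of genes of the endoplasmic reticulum, with Sdf2l1, at 3, 2.61 and 2.17 FPKM in saline and 15.5, 17.1 and 16.5 FPKM in DOX (log2 fold change 2.28, SE 0.086, limma adjusted p = 2.23e-08), Pdia4 (1.38), Manf (1.33), Creld2 (1.24), Pdia6 (1.22) and Calr (0.91), although Herpud1, of the same compartment, fell by 0.51. Among cytosolic members, Hspa1b was at -1.36 beside Hspa1a, a near-identical copy whose reads cannot be divided with certainty, and Hsph1 at -0.36. Hsp90aa1, Hspb1 and Cryab, an abundant small heat shock protein of muscle, rose by 0.63, 0.86 and 0.65.

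Regulators of these programmes bind known short motifs, and the promoters of the members that rose most with such a motif are shown because the motifs were commoner in these 2 lists than among all genes tested. RefSeq promoter windows of GRCm38.p6 (250 bases before to 50 bases after the start, both strands searched) were found for 9636 of the genes tested. The amino acid response element TGATGNAA, which ATF4 can bind, was in 7 of 33 windows of the integrated stress response list (21.2%), against 2.26% of the windows of all genes tested and 4.06% of all 27025 windows. They were those of Asns, Nupr1, Pycr1, Atf3, Trib3, Aars and Chac1, of which the first 6 were higher and Chac1 was lower. The endoplasmic reticulum stress element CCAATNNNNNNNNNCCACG was in 7 of 30 windows of the unfolded protein list (23.3%), against 0.156% of those of all genes tested and 0.13% of all windows. Those genes, Creld2, Pdia6, Calr, Hsp90b1, Dnajc3, Hspa5 and Canx, all passed as higher, with differences of 0.14 (Canx) to 1.24 (Creld2), although with median-ratio scaling Canx was at -0.0066 and with quantile normalization at -0.051, and its call was lost without saline library 1 or 2 or DOX library 2 or 3 (0.096 to 0.14). A match describes the letters in the window and is not a test of binding. The lists were made of known members of these pathways, so the shares may follow from that choice. They describe the lists and not an effect of doxorubicin. The 200 bases before the start are printed 5′ to 3′ on the gene's own strand, with the motif or its complement in capitals, for Nupr1 (chr7:126625471-126625670, minus strand), Asns (chr6:7693210-7693409, minus strand), Creld2 (chr15:88819446-88819645, plus strand) and Pdia6 (chr12:17266389-17266588, plus strand).
Nupr1: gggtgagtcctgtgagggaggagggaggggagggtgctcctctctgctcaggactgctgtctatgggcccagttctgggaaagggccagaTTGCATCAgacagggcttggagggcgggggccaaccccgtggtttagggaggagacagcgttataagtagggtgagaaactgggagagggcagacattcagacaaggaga
Asns: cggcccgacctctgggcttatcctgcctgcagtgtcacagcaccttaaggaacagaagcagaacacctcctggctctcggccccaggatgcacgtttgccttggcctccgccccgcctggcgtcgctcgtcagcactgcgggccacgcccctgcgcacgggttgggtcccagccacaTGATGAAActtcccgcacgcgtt
Creld2: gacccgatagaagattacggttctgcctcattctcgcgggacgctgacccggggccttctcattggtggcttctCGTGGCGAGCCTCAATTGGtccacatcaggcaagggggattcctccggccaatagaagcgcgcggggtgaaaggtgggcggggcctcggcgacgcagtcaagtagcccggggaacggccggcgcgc
Pdia6: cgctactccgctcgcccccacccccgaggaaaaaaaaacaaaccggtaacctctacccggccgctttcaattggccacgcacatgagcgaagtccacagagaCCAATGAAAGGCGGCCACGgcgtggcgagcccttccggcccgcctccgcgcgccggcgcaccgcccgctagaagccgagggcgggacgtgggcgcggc
The motif ended 15 bases before the start in Asns, 79 in Pdia6, 102 in Nupr1 and 107 in Creld2.

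Of the natriuretic peptides and other stress-induced cardiac genes, 24 of 35 were higher and 8 lower (25 and 9 with quantile normalization), and 17 were at least 2-fold higher. Among all genes, 45.3% were higher, 22.5% lower and 9.57% at least 2-fold higher as deposited. In the list, 32 members had a saline mean of at least 1 FPKM, of which 21 were higher. The others passed the filter only through DOX. Nppa, which encodes atrial natriuretic peptide, was at 182, 212 and 215 FPKM in the saline libraries and 2614, 2958 and 2822 FPKM in the DOX libraries (log2 fold change 3.78, SE 0.067, limma adjusted p = 3.24e-10). Nppb, brain natriuretic peptide, was at 209.9, 253 and 228 FPKM in saline and 1271, 1315 and 1244 FPKM in DOX (log2 fold change 2.47, SE 0.06, limma adjusted p = 1.7e-09). Nmrk2, a muscle kinase that makes an NAD precursor from nicotinamide riboside, was at 10.6, 9.83 and 9.73 FPKM in saline and 333, 255 and 279 FPKM in DOX (log2 fold change 4.71, SE 0.086, limma adjusted p = 3.37e-10). The lowest DOX library exceeded the highest saline library more than 4-fold for each of these 3 genes. Ankrd2, a stretch-responsive titin partner, rose by 3.1, Ankrd1, its cardiac relative, by 1.49, Rcan1, an inhibitor of calcineurin, by 1.51 and Fhl1, a LIM protein of the sarcomere, by 2.12. Myh7 rose by 1.79, while some other members of the list did not rise. Acta1, skeletal actin, was at 386, 626 and 488 FPKM in saline and 404, 351 and 384 FPKM in DOX (log2 fold change -0.37, SE 0.14, limma adjusted p = 0.0418), a call lost without saline library 2 or 3 or DOX library 2 or 3 (-0.38 to -0.19), and Myh7b fell by 1.2. Corin, the protease that activates natriuretic peptides, fell by 0.49, and Npr2 and Npr1, receptors of such peptides, fell (log2 fold changes -0.55 and -0.20).

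Some genes of the stress list are also atrial markers, and the part of the heart taken is not given. Myl7, the atrial regulatory light chain, was at 0.49, 0.48 and 0.49 FPKM in the saline libraries and 16.6, 12.6 and 12.6 FPKM in the DOX libraries (log2 fold change 3.32, SE 0.1, limma adjusted p = 6.29e-09). Sln, sarcolipin, an inhibitor of the calcium pump that is abundant in atria, was at 0, 0.18 and 0.19 FPKM in saline and 9.75, 7.38 and 8.22 FPKM in DOX (log2 fold change 3.07, SE 0.11, limma adjusted p = 1.76e-08). Myl4, the atrial essential light chain, was at 1.57, 1.98 and 1.67 FPKM in saline and 20.4, 19.3 and 19.6 FPKM in DOX (log2 fold change 2.92, SE 0.069, limma adjusted p = 1.4e-09). All 3 were far higher in every DOX library, at levels that stayed small beside the ventricular light chain Myl2, at 14846, 13927 and 14117 FPKM in saline and 8334, 8119 and 8424 FPKM in DOX. Of the 15 atrial and conduction markers tested, 6 were higher and 6 lower (4 and 8 with quantile normalization), and the 2-fold rises were Nppa and these 3. The atrial potassium channel genes Kcnj3 (-0.72), Kcnj5 (-0.70) and Kcna5 (-0.48) fell, as did Stard10 (-0.78) and Hcn4, the pacemaker channel (-0.54). The part of atrial tissue in these rises was not tested.

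**Figure D3:**
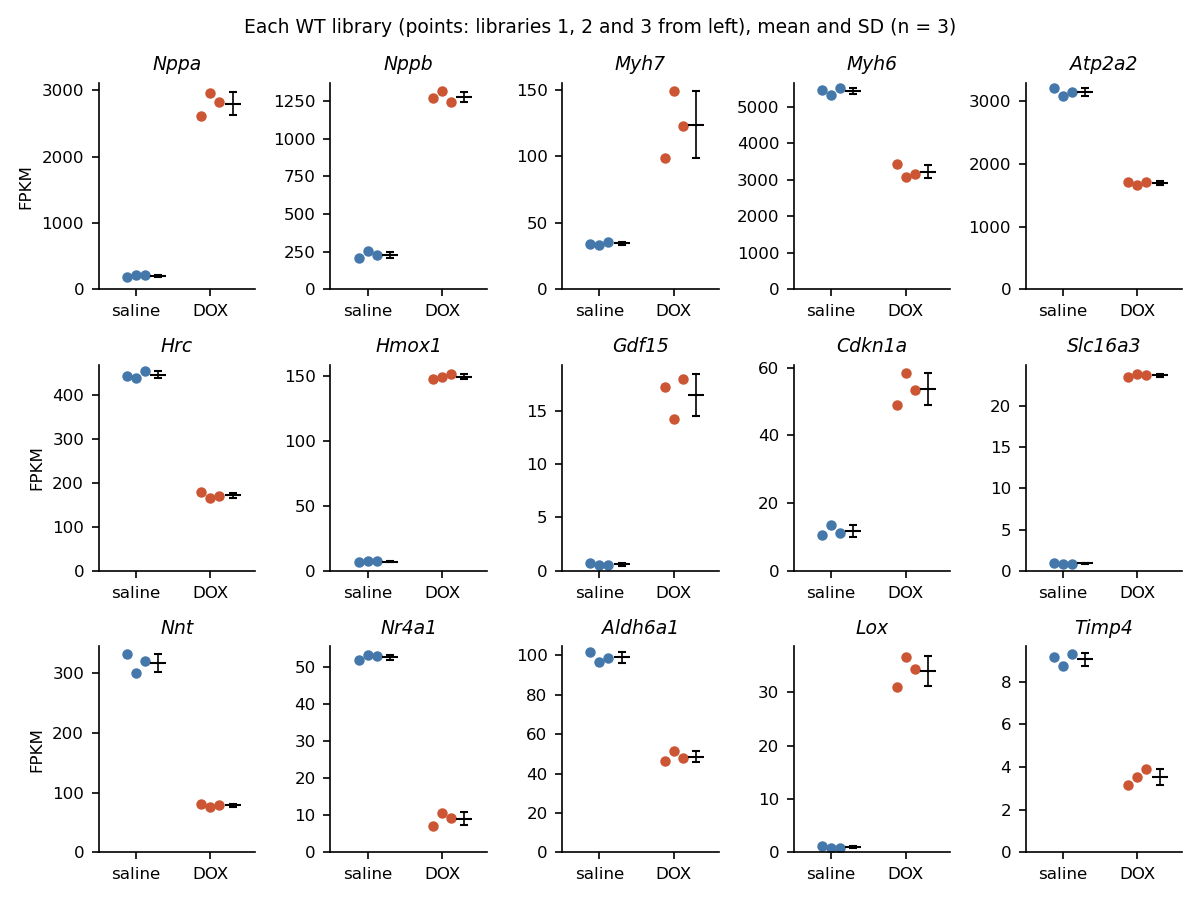
FPKM of 15 genes in each WT library, with points for saline (blue) and DOX (red) libraries 1, 2 and 3 from left to right and bars for the mean and SD (n = 3). No gene shown has overlapping groups, and Myh7 spreads most among the DOX libraries, from 99.0 to 149.4 FPKM.

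Genes of the contractile apparatus fell by modest amounts, with 28 of 36 sarcomere, Z-disc and costamere genes lower, 4 higher (29 and 4 with quantile normalization) and a median of -0.33 beside 0.12. Myh6, the main myosin heavy chain of the adult mouse heart, was at 5463, 5330.1 and 5509.9 FPKM in the saline libraries and 3435, 3089 and 3158 FPKM in the DOX libraries (log2 fold change -0.75, SE 0.041, limma adjusted p = 2.49e-07). Tnni3, cardiac troponin I, was at 6186, 5760.1 and 5891 FPKM in saline and 3740.2, 3573 and 3805 FPKM in DOX (log2 fold change -0.68, SE 0.037, limma adjusted p = 2.37e-07). Tnnt2, cardiac troponin T, was at 8458, 7949.9 and 8516 FPKM in saline and 7949, 7724 and 7653 FPKM in DOX (log2 fold change -0.095, SE 0.034, limma adjusted p = 0.0331). Transcripts for proteins of the same thin filament thus differed in size of change. The call for Tnnt2 was lost with quantile normalization (0, against -0.27 for Tnni3) and without saline library 1 or 3 or DOX library 2 or 3 (-0.09 to -0.077). Ttn, titin, fell by 0.53, Mybpc3, myosin-binding protein C, fell by 0.44 and Tcap fell by 0.62, whereas Pdlim5 and Pkp2, proteins of the Z-disc and the desmosome, rose by 0.45 and 0.39. The cardiomyocyte markers as a whole were lower in 17 of 20 cases and higher in 3, with a median of -0.58, and with quantile normalization 13 were lower and 5 higher, with a median of -0.28. The part of this shift in each fall of a muscle gene was not tested.

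Calcium cycling and adrenergic signalling had 23 of 39 members lower and 9 higher (26 and 6 with quantile normalization). Atp2a2, the SERCA2 pump that refills the sarcoplasmic reticulum, was at 3214, 3091 and 3146 FPKM in the saline libraries and 1709, 1661 and 1713 FPKM in the DOX libraries (log2 fold change -0.89, SE 0.029, limma adjusted p = 9.86e-09). Hrc, a calcium-binding protein inside that store, was at 442, 438 and 454 FPKM in saline and 178, 166 and 170.1 FPKM in DOX (log2 fold change -1.37, SE 0.036, limma adjusted p = 2.8e-09). Saline and DOX were far apart for both, and the fall of Hrc exceeded those of Pln (-0.72), Ryr2, the release channel (-0.53), and Casq2, the main calcium buffer of the store (-0.38). Adra1a, an adrenergic receptor, fell by 1.0 and Agtr1a, the angiotensin II receptor, fell by 0.42. Grk5, a kinase that desensitises such receptors, rose by 1.01, and Slc8a1, the sodium-calcium exchanger, by 0.36.

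Ion channels and gap junctions had 28 of 40 members lower and 9 higher (28 and 4 with quantile normalization), with a median of -0.47. Scn4b, a sodium channel beta subunit, was at 10.5, 10.8 and 10.8 FPKM in the saline libraries and 2.85, 2.22 and 2.31 FPKM in the DOX libraries (log2 fold change -1.76, SE 0.077, limma adjusted p = 5.41e-08). Kcnip2, the subunit that sets the transient outward potassium current, was at 113, 116 and 119 FPKM in saline and 51.6, 49.5 and 49.9 FPKM in DOX (log2 fold change -1.19, SE 0.038, limma adjusted p = 7.86e-09). Its channel partners Kcnd2 and Kcnd3 fell (log2 fold changes -0.63 and -0.56). Fxyd5, a regulator of the sodium pump, was at 26.1, 31.2 and 27.5 FPKM in saline and 168, 162 and 165 FPKM in DOX (log2 fold change 2.51, SE 0.06, limma adjusted p = 1.53e-09). The gap junction gene Gja1 (0.19) passed as higher as deposited but did not pass with median-ratio scaling, at 0.039.

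Among 39 cardiac transcription factors 11 were higher and 16 lower, and with quantile normalization 2 and 25. Myc, the growth factor-induced oncogene, was at 1.2, 1.25 and 1.09 FPKM in saline and 11.2, 11 and 11.4 FPKM in DOX (log2 fold change 2.48, SE 0.063, limma adjusted p = 2.06e-09), and Runx1 rose by 1.02. Both were higher with quantile normalization too, at 2.23 and 0.64. Of the regulators of fat oxidation and mitochondria in the list, Ppara (-0.73), Ppargc1a (-0.63), Esrrg (-0.50) and Rxrg (-0.45) fell, while Ppard, called higher at 0.11, lost that call without any 1 of the 6 libraries (0.096 to 0.13) and was at -0.091 with quantile normalization and -0.026 with median-ratio scaling. Klf15, a glucocorticoid-induced factor that controls amino acid breakdown, was at 25.1, 21 and 23.7 FPKM in saline and 12.2, 11.1 and 12.5 FPKM in DOX (log2 fold change -0.91, SE 0.07, limma adjusted p = 2.83e-06), and Nr3c2, the mineralocorticoid receptor, fell by 0.83. The factors Irx4 and Srf had differences of -0.056 and -0.037 and did not pass, although with median-ratio scaling both passed as lower (-0.20 and -0.18).

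Among genes of fuel uptake and choice 30 of 46 were lower and 12 higher (31 and 10 with quantile normalization), and the largest rises were those of a lactate exporter, an inhibitor of fat uptake and a glucose carrier. Slc16a3, the lactate exporter MCT4, was at 0.98, 0.87 and 0.87 FPKM in the saline libraries and 23.5, 23.8 and 23.7 FPKM in the DOX libraries (log2 fold change 3.69, SE 0.056, limma adjusted p = 2.06e-10). Slc2a1, the basal glucose carrier GLUT1, was at 7.96, 7.36 and 6.62 FPKM in saline and 25.5, 25.8 and 24.9 FPKM in DOX (log2 fold change 1.67, SE 0.064, limma adjusted p = 2.34e-08). Slc2a4, the insulin-regulated GLUT4, was at 219.5, 215 and 215 FPKM in saline and 138, 134 and 134 FPKM in DOX (log2 fold change -0.68, SE 0.032, limma adjusted p = 9.55e-08). The groups did not overlap for either gene, and the directions were opposite. Pfkfb3, which makes the activator of glycolysis, rose by 1.2, and its relatives Pfkfb1 and Pfkfb2 fell (log2 fold changes -1.28 and -0.78). Of the kinases that switch off pyruvate dehydrogenase, Pdk3 rose by 1.53, Pdk2 fell by 0.79 and Pdk4, at 122, 136 and 130.0 FPKM in saline and 149, 121 and 132 FPKM in DOX, did not pass (log2 fold change 0.048, SE 0.071, limma adjusted p = 0.573). Angptl4, an inhibitor of lipoprotein lipase, rose by 2.01, and Lpl itself fell by 0.48. Acsl1, Cpt2 and Cpt1b, which carry fatty acids to oxidation, fell (log2 fold changes -0.76, -0.72 and -0.57).

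Oxidation of ketones and branched-chain amino acids had the lowest median of the 31 pathway lists. In it 26 of 28 members were lower (27 with quantile normalization), none higher and 2 did not pass, with a median of -0.57. Aldh6a1, an enzyme of valine breakdown, was at 102, 96.6 and 98.7 FPKM in the saline libraries and 46.5, 51.7 and 47.8 FPKM in the DOX libraries (log2 fold change -1.01, SE 0.047, limma adjusted p = 8.71e-08). Oxct1, which activates ketone bodies for use, was at 462, 492 and 465 FPKM in saline and 280.0, 289 and 291 FPKM in DOX (log2 fold change -0.72, SE 0.035, limma adjusted p = 1.24e-07). Ivd, for leucine, fell by 0.81, Bckdhb and Dbt, subunits of the shared dehydrogenase, fell (log2 fold changes -0.72 and -0.68), and Ppm1k, its activating phosphatase, fell by 0.73. Slc25a44, the carrier that brings branched-chain amino acids into mitochondria, was among those that did not pass (0.13). Without saline library 2, Slc25a44 passed as higher (0.15). Beside this list, the median of the cardiomyocyte markers was -0.58 as deposited, but with quantile normalization the medians were -0.76 for the list and -0.28 for the markers. The part of the markers' shift in this fall was not tested.

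Lipid storage and cholesterol genes were divided, with 19 of 34 higher and 10 lower (12 and 14 with quantile normalization). As deposited, 45.3% and 22.5% of all genes were. Plin2, a coat protein of lipid droplets, was at 41.7, 40.5 and 39.9 FPKM in saline and 92.1, 101 and 99.6 FPKM in DOX (log2 fold change 1.24, SE 0.045, limma adjusted p = 1.73e-08), and Soat1, which esterifies cholesterol, rose by 1.74, while Dgat2, of triglyceride synthesis, fell by 0.72. Among creatine, nucleotide and amino acid genes 21 of 34 were higher and 9 lower (15 and 13 with quantile normalization). With a saline mean of at least 1 FPKM there were 30, of which 17 were higher. Ckm, the creatine kinase of muscle, was at 1835, 1864 and 1863 FPKM in saline and 884, 801 and 848 FPKM in DOX (log2 fold change -1.14, SE 0.038, limma adjusted p = 1.13e-08), Ckmt2, the mitochondrial one, fell by 0.71. Gatm, of creatine synthesis, was at 2.67, 3.74 and 2.14 FPKM in saline and 11.6, 8.7 and 9.7 FPKM in DOX (log2 fold change 1.52, SE 0.15, limma adjusted p = 1.18e-05). Of its polyamine genes, Srm, spermidine synthase, rose by 1.31, Odc1, ornithine decarboxylase, by 0.81 and Sat1, which marks polyamines for breakdown, by 1.5, while Sms, spermine synthase (-0.054), did not pass.

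A share within a pair of paralogues does not depend on how a library is scaled. For 22 pairs, chosen after their values were seen, in which the second gene is the form typical of heart or skeletal muscle or the more abundant one in the heart, the share of the first gene was higher in every DOX library than in every saline library in 21. Myh7 made up 0.626%, 0.629% and 0.642% in the saline libraries and 2.8%, 4.61% and 3.74% in the DOX libraries of Myh7 plus Myh6. Slc16a3 made up 1.45%, 1.33% and 1.3% in the saline libraries and 29.3%, 30.4% and 30.7% in the DOX libraries of Slc16a3 plus Slc16a1, the more widespread lactate carrier. In both pairs the DOX libraries held a share several times that of saline, and only the first pair spread among the DOX libraries. Slc2a1 went from 3.26 ± 0.261% to 15.8 ± 0.337% (SD, n = 3) of its sum with Slc2a4, Ldha, lactate dehydrogenase A, from 23.9 ± 0.364% to 46.1 ± 0.109% of its sum with Ldhb, and Pdk3 from 0.499 ± 0.0325% to 3.66 ± 0.154% of its sum with Pdk2. Enzymes of lower glycolysis did likewise, with Eno1, enolase 1, going from 10.2 ± 0.295% to 36.6 ± 1.16% beside the muscle form Eno3 and Pgam1 from 4.87 ± 0.236% to 16.8 ± 0.406% beside Pgam2. The ribosomal protein Rpl3 went from 35.1 ± 0.96% to 81.8 ± 2.37% beside Rpl3l, its copy of striated muscle, and the elongation factor Eef1a1 from 75.4 ± 0.461% to 90.5 ± 0.742% beside Eef1a2. Non-muscle Actn1 went from 1.19 ± 0.104% to 4.92 ± 0.122% beside sarcomeric Actn2. Subunits of cytochrome oxidase shifted less, with Cox6a1 going from 6.14 ± 0.378% to 11.2 ± 0.463% beside Cox6a2. The exception was skeletal Acta1, which made up 3.26%, 4.6% and 3.92% in the saline libraries and 3.79%, 3.89% and 3.88% in the DOX libraries of its sum with cardiac Actc1. Because the pairs were chosen with their values known, no p-value is given for them, and the count of 21 reflects that choice. Among all genes tested, taken singly, groups did not overlap for 72.5%. Close paralogues share reads, so the levels are less certain than the shift.

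**Figure D4:**
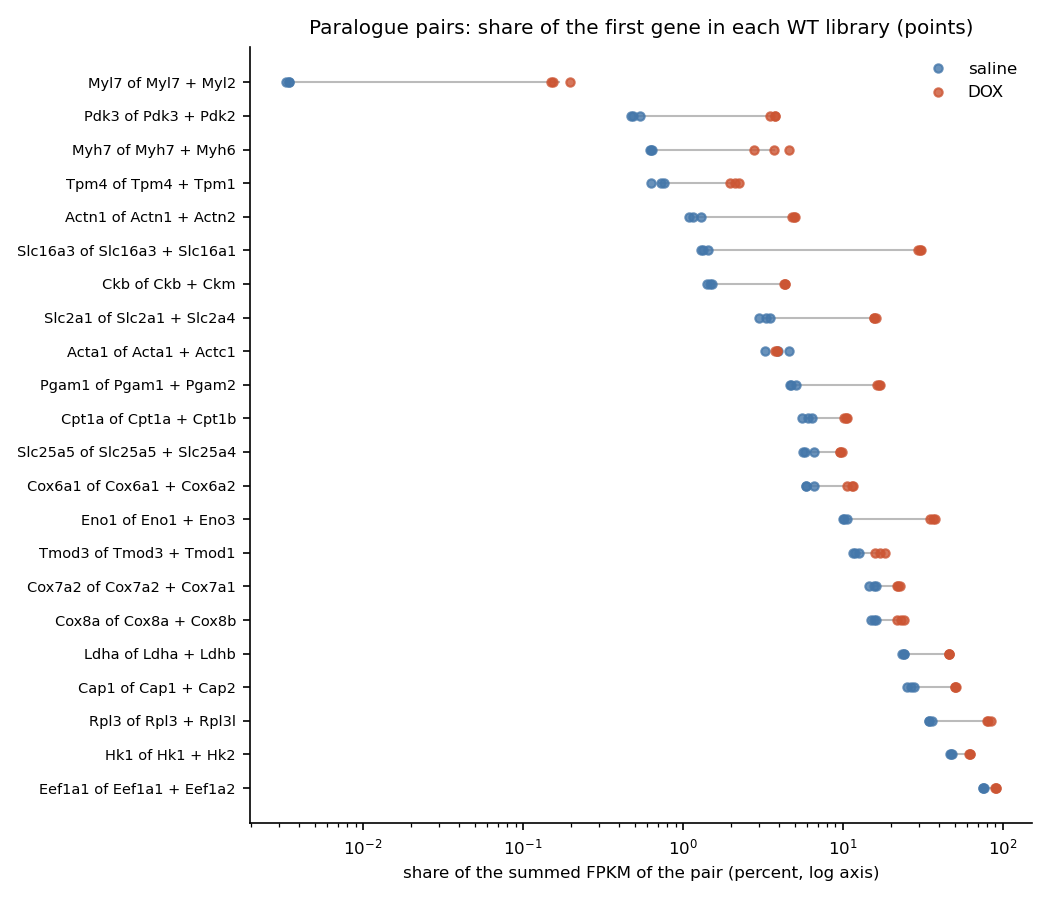
Points give, for each WT library, the percent (log axis) of the first gene in the summed FPKM of 22 pairs, in blue for saline and red for DOX. DOX lies to the right of saline without overlap in 21 pairs, and the groups overlap in Acta1 of Acta1 + Actc1.

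Immediate early and glucocorticoid-responsive genes did not move as one, with 20 of 41 higher and 13 lower (17 and 17 with quantile normalization). For all genes the shares as deposited were 45.3% and 22.5%. The rises included Ccn2, connective tissue growth factor, at 22.9, 22 and 23.4 FPKM in the saline libraries and 157, 173 and 170.2 FPKM in the DOX libraries (log2 fold change 2.82, SE 0.047, limma adjusted p = 2.87e-10), Ier3 (1.91) and Junb (1.46). Below saline lay Zbtb16 (-1.06), Klf9 (-0.72), Per1 (-0.65), Dusp1 (-0.62) and Tsc22d3 (-0.48), genes known to be induced by glucocorticoids, while Fkbp5, another of them, was higher (0.82). Of members named above, Mt2 had the largest rise of the list (3.32), Klf15 fell by 0.91 and Pdk4 did not pass (0.048). Cdkn1c, a cell cycle inhibitor, fell by 1.08. Jun, at 22.8, 24.5 and 25.1 FPKM in saline and 23.1, 24.8 and 24.8 FPKM in DOX, did not differ enough to pass (log2 fold change 0.0044, SE 0.052, limma adjusted p = 0.944).

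Innate immune genes rose together. All 43 pattern receptors, inflammasome and Fc receptor genes tested were higher, 33 of them at least 2-fold, where 45.3% and 9.57% of all genes were, and 39 were higher with quantile normalization. The 28 with a saline mean of at least 1 FPKM were all higher. Msr1, a scavenger receptor of macrophages, was at 2.1, 1.79 and 1.52 FPKM in the saline libraries and 27, 32.8 and 31.2 FPKM in the DOX libraries (log2 fold change 3.48, SE 0.093, limma adjusted p = 2.86e-09). Fcgr4, an Fc receptor for antibodies, was at 2.27, 3.74 and 2.94 FPKM in saline and 33.6, 39.3 and 35.5 FPKM in DOX (log2 fold change 3.23, SE 0.12, limma adjusted p = 2.03e-08). Tyrobp, the adaptor that many myeloid receptors share, was at 27.3, 26.3 and 32.2 FPKM in saline and 218, 230.2 and 229 FPKM in DOX (log2 fold change 2.94, SE 0.068, limma adjusted p = 1.35e-09). No DOX library came near the saline range for any of them. Clec4d, a lectin receptor, rose by 4.07, Trem2 by 3.25, C5ar1, the receptor of complement C5a, by 2.25 and Casp4 and Casp1, inflammatory caspases, by 1.9 and 1.44.

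Chemokines and their receptors had the highest median of the 31 pathway lists, 2.13, with 28 of 33 higher, 3 lower (26 and 4 with quantile normalization) and 23 at least 2-fold higher. Of the 27 with a saline mean of at least 1 FPKM, 22 were higher. Ligands of the monocyte receptor CCR2 were among the largest rises, with Ccl7 at 5.39, 7.01 and 6.57 FPKM in the saline libraries and 129, 162 and 149.9 FPKM in the DOX libraries (log2 fold change 4.34, SE 0.098, limma adjusted p = 1.17e-09) and Ccl12, a close relative of Ccl2, up by 3.1. Ccr2 itself was at 1.24, 1.26 and 1.11 FPKM in saline and 31.8, 29.8 and 30.2 FPKM in DOX (log2 fold change 3.84, SE 0.058, limma adjusted p = 2.06e-10). Cxcl5, a ligand that draws neutrophils, was at 0.31, 0.22 and 0.43 FPKM in saline and 26.4, 30.6 and 30.1 FPKM in DOX (log2 fold change 4.51, SE 0.082, limma adjusted p = 3.37e-10), and its receptor Cxcr2 rose by 2.27. Ligand and receptor genes of both axes were thus higher in the same 3 libraries. Cxcl14 (-0.47) and the decoy receptors Ackr3 (-0.47) and Ackr4 (-0.57) fell. Of 46 members of the interleukin-1, interleukin-6 and TNF families 41 were higher and 3 lower (37 and 3 with quantile normalization), and 31 were higher among the 36 with a saline mean of at least 1 FPKM. Il1r2, a decoy receptor made by neutrophils, was at 0, 0 and 0.32 FPKM in saline and 15.3, 19.8 and 19.6 FPKM in DOX (log2 fold change 4.12, SE 0.13, limma adjusted p = 8e-09). Il1b was at 1.09, 2.54 and 3.06 FPKM in saline and 20.3, 24.9 and 21.7 FPKM in DOX (log2 fold change 2.9, SE 0.21, limma adjusted p = 1.58e-06). Socs3, which curbs signals of the interleukin-6 family, was at 1.64, 2.32 and 2.4 FPKM in saline and 18.8, 21.4 and 19.4 FPKM in DOX (log2 fold change 2.75, SE 0.099, limma adjusted p = 1.66e-08). Il6 rose by 2.25, Il33, an alarm signal of stromal cells, by 1.86 and Tnf by 1.06, whereas Lifr, the receptor of leukaemia inhibitory factor, fell by 0.36.

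Markers of immune cells moved with these genes. All 20 markers of monocytes and recruited macrophages were higher, among them the 14 with a saline mean of at least 1 FPKM, with a summed level of 395 to 429 FPKM in saline and 2615 to 2631 FPKM in DOX. Of 20 neutrophil markers 12 were tested and all 12 were higher, but 7 of these had a saline mean under 1 FPKM and so passed the filter only through DOX. Their list summed to 10.2 to 11.2 FPKM in saline and 332 to 422 FPKM in DOX. S100a8, an alarmin of neutrophils, was at 0.77, 2.02 and 1.54 FPKM in saline and 81.6, 104 and 94.5 FPKM in DOX, and Mmp8, neutrophil collagenase, at 0, 0.07 and 0.04 FPKM in saline and 6.28, 7.2 and 6.51 FPKM in DOX. Resident macrophage markers were divided, with 12 of 19 higher and 3 lower (12 and 5 with quantile normalization). Cd68 rose by 2.69 and Adgre1, which encodes F4/80, by 1.48. Retnla, a marker of some resident macrophages, was at 10.9, 8.96 and 8.43 FPKM in saline and 1.5, 1.88 and 1.54 FPKM in DOX (log2 fold change -1.98, SE 0.099, limma adjusted p = 1.4e-07), Cd163, a scavenger receptor, fell by 0.48, and Lyve1 and Folr2 had differences of -0.085 and 0.04 that did not pass. Of 12 T and natural killer cell markers tested 11 were higher (10 with quantile normalization), 7 of them with a saline mean under 1 FPKM, at low levels and with spread among the DOX libraries. Gzmb, granzyme B, was at 0.84, 0.95 and 1.09 FPKM in saline and 9.46, 3.27 and 5.86 FPKM in DOX (log2 fold change 1.78, SE 0.26, limma adjusted p = 0.000201). Cd3g, a subunit of the T cell receptor complex, was at 0.9, 0.62 and 0.72 FPKM in saline and 3.19, 1.43 and 3.9 FPKM in DOX and Nkg7 at 1.38, 0.9 and 1.5 FPKM in saline and 7.56, 2.93 and 5.37 FPKM in DOX, and Gzmb, Cd3g and Nkg7 were each lowest in DOX library 2. The part of these cells in the rise of the immune genes was not tested.

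Interferon-induced genes were higher in 46 of 49 cases (41 with quantile normalization), none lower, with a median of 0.95 beside 0.12 for all genes, and 24 were at least 2-fold higher. Zbp1, a sensor of left-handed nucleic acid that can start cell death, was at 8.29, 14.1 and 9.94 FPKM in the saline libraries and 53.8, 75.2 and 63.9 FPKM in the DOX libraries (log2 fold change 2.49, SE 0.17, limma adjusted p = 1.07e-06). Ifitm1 was at 6.36, 6.42 and 7 FPKM in saline and 34.3, 34.3 and 33 FPKM in DOX (log2 fold change 2.2, SE 0.051, limma adjusted p = 1.35e-09). Igtp, a GTPase induced by interferon-gamma, was at 68.1, 90.4 and 74.8 FPKM in saline and 163, 437 and 307 FPKM in DOX (log2 fold change 1.84, SE 0.29, limma adjusted p = 0.000324). Ifitm1 hardly varied within either group, whereas Igtp was lowest in library 1 and highest in library 2 of both. The 3 that did not pass were Rsad2, at 14, 19.6 and 15.5 FPKM in saline and 14.1, 21.6 and 17.8 FPKM in DOX (log2 fold change 0.11, SE 0.15, limma adjusted p = 0.527), Gbp6, at 60.2, 88.9 and 69.9 FPKM in saline and 66.7, 154 and 112 FPKM in DOX (log2 fold change 0.53, SE 0.26, limma adjusted p = 0.0926), and Cmpk2, at 8.03, 11 and 9.33 FPKM in saline and 10.6, 11.9 and 11.3 FPKM in DOX (log2 fold change 0.24, SE 0.097, limma adjusted p = 0.0506).

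The spread within the groups had a common shape in this list. In saline, library 2 was the highest and library 1 the lowest for 41 of the 49 genes, against 20.2% of all genes tested, and in DOX the same was true of 42 of 49, against 24.1%. For 38 of the 49 genes it held in both groups, against 6.14% of all genes. Saline library 2 exceeded saline library 1 by a median of 0.402 on the log2 scale over the list, and DOX library 2 exceeded DOX library 1 by 0.483, while the medians over all genes were 0.00154 and 0.013. Comparing DOX library 1 with saline library 2 gave a median of 0.426, and 42 of 49 genes were higher there. Ifi44, at 11.7, 20.5 and 15.3 FPKM in saline and 16.9, 32.4 and 25.1 FPKM in DOX, and Usp18, at 16.1, 24.1 and 16.6 FPKM in saline and 23.3, 37.2 and 32.4 FPKM in DOX, passed the test although their groups overlapped. The call of Ifi44 was lost without saline library 1 or 3 or DOX library 2 or 3, with differences of 0.40 to 0.60. Gbp6 and Cmpk2 passed without DOX library 1 (0.86 and 0.28), and Cmpk2 without saline library 2 (0.35). With the repeat number as a block in the fit, 48 of the 49 genes were higher, Gbp6 and Cmpk2 among them. Other lists had this shape in part. In DOX, library 2 was the highest and library 1 the lowest for 9 of 12 neutrophil and 6 of 8 adipocyte markers. In saline that held for 18 of 29 collagen and basement membrane genes. It held in both groups for 3 of the neutrophil markers, 0 of the adipocyte markers and 8 of the collagen list. The labels do not say what the libraries of one number share. Ccl5, a chemokine of T cells, departed from this shape, at 4.74, 3.94 and 7.13 FPKM in saline and 16.2, 10.4 and 12.7 FPKM in DOX, and the T cell markers above, which were lowest in DOX library 2, did so too.

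**Figure D5:**
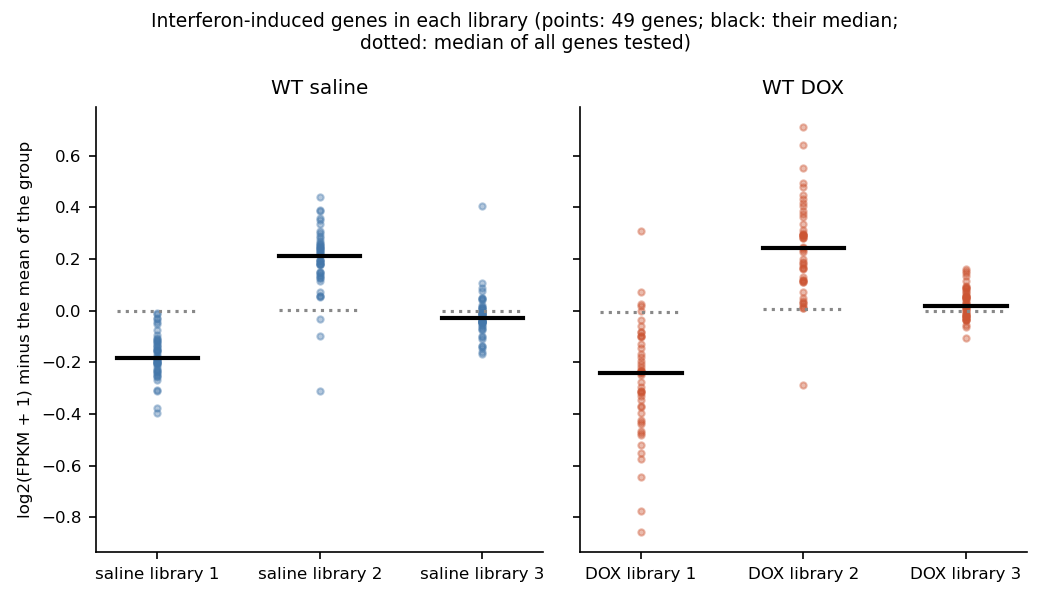
Points are 49 interferon-induced genes in each library, as log2(FPKM + 1) minus the mean of the 3 libraries of the group, with black lines for their median and dotted lines for the median of all genes tested. In both groups the genes lie mostly below 0 in library 1 and above 0 in library 2, while the median of all genes stays near 0.

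The interferon-stimulated response element, written here as GAAANNGAAA, was in 19 of the 38 promoter windows found for this list (50.0%), against 3.27% of the windows of all genes tested and 3.49% of all windows. Of the 19 genes 18 were higher, among them Isg15 (1.46), Ifit3 (1.25), Bst2 (1.09) and Stat2 (0.89), and the other was Rsad2. The list was made of known interferon-induced genes, so its share of the motif may follow from that choice and was not tested. The 200 bases before the start are given for the members with the largest rise whose match lies in that stretch, Oas3, which makes the activator of an RNA-cutting enzyme (chr5:120777660-120777859, minus strand), and Igtp (chr11:58199356-58199555, plus strand), with the motif in capitals. The letters ended 65 bases before the start of Oas3 and 24 bases before that of Igtp.
Oas3: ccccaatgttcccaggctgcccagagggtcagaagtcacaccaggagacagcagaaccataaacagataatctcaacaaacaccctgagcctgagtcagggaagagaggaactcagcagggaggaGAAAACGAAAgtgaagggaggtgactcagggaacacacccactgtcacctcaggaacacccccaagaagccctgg
Igtp: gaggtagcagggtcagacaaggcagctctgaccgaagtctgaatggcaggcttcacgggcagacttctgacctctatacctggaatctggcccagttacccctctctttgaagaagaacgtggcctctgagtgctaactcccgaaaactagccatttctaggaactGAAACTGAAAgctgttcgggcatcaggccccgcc

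A wider search used genes that rose at least 4-fold, of which 192 of 255 had a window. The letters TGANTCA, which AP-1 factors can bind, were in 29 of these windows (15.1%) and in 4.95% of those of all genes tested, and GAGGAAGT, which the myeloid factor PU.1 can bind, in 24 (12.5%) and 3.28%. Shares in all 27025 windows were 7.93% and 3.28%. Which genes rose was used to form this group, so the shares describe it and no test was made.

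Complement and coagulation genes were higher in 24 of 36 cases and lower in 5 (22 and 10 with quantile normalization), beside 45.3% and 22.5% of all genes. Among the 32 with a saline mean of at least 1 FPKM, 20 were higher. Plaur, the urokinase receptor, was at 1.63, 1.66 and 2.04 FPKM in the saline libraries and 17.4, 15.5 and 16.5 FPKM in the DOX libraries (log2 fold change 2.65, SE 0.076, limma adjusted p = 4.32e-09), and Plau, urokinase, rose by 1.92. C1qb, part of the first complement component, rose by 1.38 and Cfb by 2.33, while C3, at 33.4, 32.8 and 32.2 FPKM in saline and 35.2, 34.9 and 34.1 FPKM in DOX, did not pass (log2 fold change 0.081, SE 0.039, limma adjusted p = 0.0958). F3, tissue factor, and Tfpi, its inhibitor, fell (log2 fold changes -0.56 and -0.59).

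Endothelial markers did not move as one, with 9 of 28 higher and 9 lower (5 and 15 with quantile normalization) and a median of 0.047. Adhesion molecules that inflamed vessels show rose, with Selp, P-selectin, at 0.21, 0.15 and 0.05 FPKM in the saline libraries and 6.42, 5.31 and 5.53 FPKM in the DOX libraries (log2 fold change 2.57, SE 0.095, limma adjusted p = 1.99e-08), Sele, E-selectin, up by 1.07, Icam1 by 1.05 and Vcam1 by 1.02. Plvap, a protein of the diaphragms of leaky capillaries, was at 5.78, 5.8 and 5.92 FPKM in saline and 24.3, 21.8 and 23.8 FPKM in DOX (log2 fold change 1.83, SE 0.055, limma adjusted p = 5.34e-09). The lower members included Aqp1, a water channel, at 118, 106 and 112 FPKM in saline and 50.3, 52.1 and 52 FPKM in DOX (log2 fold change -1.1, SE 0.045, limma adjusted p = 3.65e-08), Car4, a carbonic anhydrase of the vessel wall, at -0.98 and Kdr, the main VEGF receptor, at -0.53. The capillary gene Ly6c1 (0.015) did not pass, although it did without DOX library 1 (0.14). The general markers Pecam1 and Emcn, at 0.092 and 0.071, did not pass, although without DOX library 1 Pecam1 did (0.13). Of 15 smooth muscle and pericyte markers 9 were lower and 4 higher (9 and 3 with quantile normalization). Rgs5, a pericyte gene, was at 155, 165 and 159.5 FPKM in saline and 75.2, 96.6 and 85.2 FPKM in DOX (log2 fold change -0.90, SE 0.077, limma adjusted p = 5.76e-06), Vtn fell by 1.01 and Abcc9, also a potassium channel subunit of muscle, fell by 1.1, whereas Cnn1 and Tagln, of contractile smooth muscle and activated fibroblasts, rose by 1.37 and 1.11. Acta2 was at 87.8, 122 and 107 FPKM in saline and 112, 89.7 and 108 FPKM in DOX and did not pass (log2 fold change -0.027, SE 0.12, limma adjusted p = 0.848).

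Of 29 collagens and basement membrane genes 24 were higher and 4 lower (19 and 5 with quantile normalization). Col1a1 was at 15.1, 16.1 and 15.6 FPKM in the saline libraries and 125, 127 and 126 FPKM in the DOX libraries (log2 fold change 2.94, SE 0.04, limma adjusted p = 1.54e-10). Col3a1 was at 42.6, 45.3 and 44 FPKM in saline and 273, 293 and 285 FPKM in DOX (log2 fold change 2.66, SE 0.04, limma adjusted p = 2.06e-10) and Col8a1, a short-chain collagen, up by 2.11. Basement membrane chains changed less, with Col4a1 at 0.73, Lama2 at -0.45 and Lamb2 at -0.25. Of 53 matricellular, cross-linking and protease genes 42 were higher, 34 of them at least 2-fold, and 7 lower (42 and 9 with quantile normalization), with a median of 1.72. Among the 41 with a saline mean of at least 1 FPKM, 30 were higher. The others passed the filter only through DOX, which raises these counts and the median. Lox, which cross-links collagen, was at 1.27, 0.88 and 0.9 FPKM in saline and 31, 36.7 and 34.4 FPKM in DOX (log2 fold change 4.12, SE 0.09, limma adjusted p = 1.03e-09). Cthrc1, a marker of activated fibroblasts, was at 0.3, 0.31 and 0.49 FPKM in saline and 15.8, 17.9 and 19 FPKM in DOX (log2 fold change 3.76, SE 0.088, limma adjusted p = 1.35e-09), and Postn, periostin, up by 3.08. Mmp12, macrophage elastase, rose by 4.33. The tissue inhibitors went different ways, since beside Timp1 the gene Timp4, the form of heart muscle, was at 9.17, 8.72 and 9.3 FPKM in saline and 3.15, 3.55 and 3.93 FPKM in DOX (log2 fold change -1.15, SE 0.074, limma adjusted p = 7.56e-07), and Timp3 fell by 0.38. Of 27 fibroblast and activated fibroblast markers 19 were higher and 5 lower (16 and 6 with quantile normalization), and 15 were higher among the 23 with a saline mean of at least 1 FPKM. Dcn, decorin, was at 388, 377 and 389.6 FPKM in saline and 376, 377 and 386 FPKM in DOX (log2 fold change -0.02, SE 0.031, limma adjusted p = 0.576), Gsn, gelsolin, fell by 0.88, Scara5 fell by 1.1, Smoc2 fell by 0.35 and Lrrc15, a marker of some activated fibroblasts, fell by 0.96.

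Of 34 members of the TGF-beta, BMP and Wnt list 24 were higher and 6 lower (22 and 8 with quantile normalization). Among the 29 with a saline mean of at least 1 FPKM, 19 were higher. Tgfb1 was at 20.2, 16.9 and 17.7 FPKM in the saline libraries and 46.5, 44.5 and 47.7 FPKM in the DOX libraries (log2 fold change 1.3, SE 0.065, limma adjusted p = 1.38e-07), Tgfb2 rose by 1.13, and Inhba and Inhbb, subunits of activin, by 1.56 and 2.16. Fstl3, an activin antagonist, was at 2.64, 3.59 and 3.01 FPKM in saline and 22.5, 19.1 and 18.8 FPKM in DOX (log2 fold change 2.38, SE 0.097, limma adjusted p = 3.5e-08), so that an activin subunit and an antagonist rose in the same libraries. Among 48 growth factor and receptor genes 27 were higher and 13 lower (19 and 20 with quantile normalization). Shares of 45.3% and 22.5% held for all genes as deposited. Igfbp3 was at 11.5, 10.1 and 9.27 FPKM in saline and 51.9, 59.6 and 55.2 FPKM in DOX (log2 fold change 2.33, SE 0.078, limma adjusted p = 1.09e-08), Hbegf, a ligand of the EGF receptor, rose by 1.68 and Angpt2, which loosens vessels, by 1.39. Vegfb, abundant in heart muscle, fell by 0.45, Fgf16, a cardiac growth factor, fell by 0.50 and Erbb3 fell by 0.45.

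Of 44 cell cycle and replication genes 38 were higher, 27 at least 2-fold, and 3 lower (33 and 5 with quantile normalization). Of the 33 with a saline mean of at least 1 FPKM, 27 were higher. Mki67, a marker of cycling cells, was at 1.51, 1.68 and 1.56 FPKM in the saline libraries and 5.56, 5.42 and 4.7 FPKM in the DOX libraries (log2 fold change 1.27, SE 0.078, limma adjusted p = 5.92e-07). Ccnb1, mitotic cyclin B1, was at 0.66, 0.69 and 0.47 FPKM in saline and 4.51, 3.71 and 4.19 FPKM in DOX (log2 fold change 1.68, SE 0.094, limma adjusted p = 2.95e-07). Mcm5 and Mcm6, of the replication helicase, rose by 1.47 and 1.48. Ube2c, a ubiquitin enzyme of mitosis, was at 3.82, 3.82 and 4.27 FPKM in saline and 16.3, 17.8 and 15.7 FPKM in DOX. Which cells held these transcripts was not tested. In ribosome biogenesis and translation 31 of 37 were higher and 4 lower (24 and 5 with quantile normalization), with Npm1, nucleophosmin, up by 1.12, Nop58 by 1.17 and Eif1a by 1.64. The cytoskeleton, annexin and S100 list had 41 of 44 higher (41 with quantile normalization too) and 38 at least 2-fold higher. Tubb6, a beta tubulin, was at 17.7, 16 and 16.3 FPKM in saline and 89, 88.5 and 88.8 FPKM in DOX (log2 fold change 2.35, SE 0.045, limma adjusted p = 5.02e-10). Anxa2 was at 49.2, 49.8 and 49.8 FPKM in saline and 223, 238 and 239.7 FPKM in DOX (log2 fold change 2.21, SE 0.038, limma adjusted p = 2.88e-10). Actb, beta actin, often used as a reference gene, was at 167, 179 and 185 FPKM in saline and 534, 518 and 502 FPKM in DOX (log2 fold change 1.55, SE 0.043, limma adjusted p = 3.71e-09). Tuba4a, an alpha tubulin of muscle, fell by 0.43.

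Of 36 proteasome subunits 34 were higher and none lower, by small amounts (median 0.31), and 22 were higher and 2 lower with quantile normalization. The largest rises belonged to the subunits that interferon exchanges into the proteasome, Psmb8 at 20.8, 25.5 and 23.4 FPKM in the saline libraries and 64.5, 64 and 61.8 FPKM in the DOX libraries (log2 fold change 1.42, SE 0.066, limma adjusted p = 8.6e-08), Psmb9 (1.06) and Psmb10 (1.0). Among lysosome, autophagy and atrophy genes 28 of 43 were higher and 9 lower (23 and 12 with quantile normalization), beside 45.3% and 22.5% of all genes. Ctss, a cathepsin of antigen-presenting cells, was at 25.9, 29.1 and 26.2 FPKM in saline and 257, 283 and 272 FPKM in DOX (log2 fold change 3.27, SE 0.053, limma adjusted p = 2.82e-10), and Gpnmb rose by 3.22. The atrophy ligase Fbxo32 fell by 0.56 and its regulator Foxo3 fell by 0.61. Of 38 cell death genes 28 were higher and 2 lower (24 and 6 with quantile normalization), where again 45.3% and 22.5% of all genes were. Ripk3 and Mlkl, the kinase and pore of necroptosis, were up by 1.51 and 1.48, with Mlkl at 3.28, 3.65 and 3.67 FPKM in saline and 10.5, 12.5 and 11.9 FPKM in DOX (log2 fold change 1.48, SE 0.073, limma adjusted p = 1.32e-07). Casp8 rose by 1.18 and Gsdmd, the pore of pyroptosis, by 1.07. Bcl2 (0.086) and Xiap (0.084), which protect cells, did not pass, and Bcl2l1, which encodes Bcl-xL, rose by 0.68. The largest rise of the list was that of Bcl2a1b, also of the Bcl2 family. It was at 1.01, 1.31 and 1.44 FPKM in saline and 41.9, 37.9 and 36.5 FPKM in DOX (log2 fold change 4.14, SE 0.083, limma adjusted p = 6.13e-10).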

How the data were processed

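RNA-seq of mouse heart was used as the gene-level values that the authors deposited, in FPKM. The submitters' processing notes name HISAT2 2.0.4, Bowtie2 2.2.5, RSEM 1.2.12 and the build GRCm39, without their roles; the annotation and whether strand was used in counting are not given in the sources used here. RSEM, where it makes such values, divides shared reads among genes by estimate. Of 16873 gene IDs, 16825 matched a symbol in a RefSeq table of GRCm38.p6, used for names and promoter windows only. Samples were grouped by their titles.

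The 3 WT DOX libraries were compared with the 3 WT saline libraries on log2(FPKM + 1) with limma 3.58.1 in R 4.3.3 (trended variance prior, two-sided, Benjamini-Hochberg over 12019 genes whose mean reached 1 FPKM, threshold 0.05, 4 residual degrees of freedom beside a median prior of 5.115). The 4854 genes below the filter were not tested. Fold changes understate the change of low genes. The depth above comes from the steps of low values, of which not all were whole, so no count test was run. In data simulated over 12019 genes, 100 were given a log2 change of 0.5 and 100 a change of 1, of either sign. Of these, 68% and 93% were called, and 5 of 11819 unchanged genes. In the real values 67.7% of genes were called, a far larger share than was changed in the simulation. The simulated rates are therefore not those of this comparison.

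Members, gene lists and tests were chosen with earlier results of these data known. Values are given for the 15 largest rises and falls with groups that do not overlap (predicted genes and genes with only a clone name left out), for up to 6 members of each list in its main direction, 3 in the other and 3 that did not pass, and for a panel of cardiac, stress and immune genes. Other members are named by direction and log2 fold change. Alternatives were other pseudocounts, filters and scalings, no variance trend, all 9 libraries, a block for the repeat number, and leaving out each library in turn. Some named genes and 1 pair of paralogues are not reported here.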

Additional observations from a re-analysis of the deposited data

How the results depend on the processing

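Of 357 genes named, 320 kept their direction and side of the threshold in all 16 alternatives, and 337 did so outside median-ratio scaling and quantile normalization; 21 changed sign in at least 1. With 5439 genes higher, 2699 lower, 1150 at least 2-fold higher and 86 at least 2-fold lower as reported, quantile normalization gave 3392 higher, 5266 lower and 226 at least 2-fold lower, and median-ratio scaling 157 at least 2-fold lower. A pseudocount of 0.1 gave 153 at least 2-fold lower and one of 5 gave 538 higher and 24 lower, as the pseudocount sets how far low genes are shrunk. A minimum mean of 5 FPKM left 700 at least 2-fold higher among fewer genes tested. Leaving out 1 library in turn gave 5069 to 5304 higher, 2416 to 2575 lower, 1132 to 1164 at least 2-fold higher and 82 to 95 at least 2-fold lower.

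Changed signs, in log2 fold change, were with quantile normalization Abcg2 -0.19, Actc1 0.14, Bcl2 -0.19, C3 -0.089, Canx -0.051, Emcn -0.10, Folr2 -0.15, Jun -0.18, Ly6c1 -0.14, Mdm2 -0.046, Pdk4 -0.12, Pecam1 -0.087, Ppard -0.091, Rsad2 -0.097, Slc25a44 -0.099, Top2b -0.15, Tpm1 0.34 and Xiap -0.14. With median-ratio scaling they were Abcg2 -0.11, Bcl2 -0.0078, C3 -0.064, Canx -0.0066, Emcn -0.075, Folr2 -0.10, Jun -0.14, Ly6c1 -0.13, Mdm2 -0.0092, Pdk4 -0.10, Pecam1 -0.055, Ppard -0.026, Rsad2 -0.029, Slc25a44 -0.0067, Top2b -0.092 and Xiap -0.052, and with TPM scaling Abcg2 -0.0025, Jun -0.026 and Ly6c1 -0.016. With 1 library left out, the ranges that crossed 0 were Abcg2 -0.038 to 0.082, Acta2 -0.15 to 0.083, Folr2 -0.053 to 0.15, Jun -0.034 to 0.037, Ly6c1 -0.079 to 0.14, Lyve1 -0.18 to 0.014, Pdk4 -0.031 to 0.12, Rsad2 -0.030 to 0.26 and Srf -0.067 to 0.0067. The sign changed without DOX library 1 (Lyve1, Pdk4), DOX library 2 (Abcg2, Acta2, Folr2, Jun, Ly6c1, Rsad2), DOX library 3 (Jun, Ly6c1), saline library 1 (Folr2, Jun, Ly6c1), saline library 2 (Acta2) and saline library 3 (Srf). The cause was not tested.

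Libraries of the same repeat number correlated weakly in their deviations from the group means (across genes, r = 0.046, 0.126 and 0.030), 5 of 6 correlated best with their own number, and the labels name nothing shared. With a replicate block, 5468 genes were higher, 2673 lower, 1150 at least 2-fold higher and 86 at least 2-fold lower, and Gbp6 and Cmpk2 passed (limma adjusted p = 0.00372 and 0.013), as did Mdm2, while Ppard did not (adjusted p = 0.0665). Depth limits low genes most, since a single fragment is a large part of a value under 1 FPKM.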

Other observations

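Genes of fat cells formed a small group that differed among the DOX libraries more than most. Cfd, the complement factor adipsin, was at 0.61, 0.4 and 0.3 FPKM in the saline libraries and 9.86, 44.3 and 29.2 FPKM in the DOX libraries (log2 fold change 4.1, SE 0.41, limma adjusted p = 1.72e-05). Car3, a carbonic anhydrase of fat and slow muscle, was at 0.47, 0.46 and 0.53 FPKM in saline and 6.17, 32.2 and 20.7 FPKM in DOX (log2 fold change 3.54, SE 0.44, limma adjusted p = 7.18e-05), and Adipoq, adiponectin, at 0.15, 0.15 and 0.15 FPKM in saline and 1.81, 9.79 and 6.55 FPKM in DOX (log2 fold change 2.41, SE 0.39, limma adjusted p = 0.000427). Each was lowest in DOX library 1 and highest in DOX library 2, several times apart, and at under 1 FPKM in every saline library. Of 8 adipocyte markers tested 6 were higher and 1 lower (5 and 1 with quantile normalization), although 4 of the 6 had a saline mean under 1 FPKM, and Fabp4, which endothelium also makes, was at 1105, 1163 and 1061 FPKM in saline and 880.0, 1008 and 999 FPKM in DOX. Their part in other results was not tested.

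Haemoglobin genes of red cells were lower, with Hbb-bs at 1026, 985 and 997 FPKM in saline and 662, 650.3 and 695 FPKM in DOX (log2 fold change -0.58, SE 0.035, limma adjusted p = 4.62e-07), and Hba-a1 and Hba-a2, which share nearly all their sequence, at -0.66 and -0.79. Of the platelet genes Ppbp, a chemokine, was at 1.02, 1.09 and 1.28 FPKM in saline and 12.2, 16.1 and 12.3 FPKM in DOX (log2 fold change 2.76, SE 0.11, limma adjusted p = 2.38e-08), and Pf4, which macrophages also express, rose by 2.32.

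Several genes outside the lists, chosen after their values were seen, had large differences. Saa3, an acute phase protein, was at 0.55, 0.54 and 0.37 FPKM in saline and 23.5, 38.3 and 29.1 FPKM in DOX (log2 fold change 4.37, SE 0.15, limma adjusted p = 1.09e-08). Ptx3, a secreted pattern receptor, rose by 2.77, Serpina3n, a protease inhibitor of the acute phase, by 3.46 and Mpeg1, a pore protein of macrophages, by 3.35.

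Of 16 epicardial and mesothelial markers 7 were tested, of which 4 were higher and 1 lower (4 and 2 with quantile normalization), and 3 of the 4 had a saline mean under 1 FPKM. Aldh1a2, which makes retinoic acid, was at 2.23, 2.93 and 2.59 FPKM in saline and 46.3, 40.4 and 44 FPKM in DOX (log2 fold change 3.64, SE 0.08, limma adjusted p = 1.03e-09), Krt19 and Slpi rose by 1.66 and 2.47, Efemp1 fell by 0.64, and Wt1, at 1.68, 1.85 and 1.97 FPKM in saline and 1.56, 1.8 and 1.8 FPKM in DOX, did not pass (log2 fold change -0.059, SE 0.083, limma adjusted p = 0.548).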
